A study of Mus musculus with 12 samples.

Results

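Cytosolic ribosomal protein genes were followed in RNA-seq libraries from the ventricles and the epididymal fat (EWAT) of mice with a cardiac MED13 transgene (MED13cTg) and of their WT littermates. A gene was a member if its symbol named a protein of the large subunit (Rpl and a number), of the small subunit (Rps and a number) or of the ribosomal stalk (Rplp), or was Rpsa. The rule found 77 genes among the 23042 entries of each expression table, 46 for the large subunit with its stalk and 31 for the small subunit, and all 77 passed the filter on low values in both tissues. All mice were males of strain C57BL/6, given as 6 weeks old by the labels, kept on normal chow and sampled in the fed state in the late afternoon. The 4 groups were WT ventricles, MED13cTg ventricles, WT EWAT and MED13cTg EWAT, with 3 mice and 3 libraries each. The transgene is expressed in the heart, and its promoter and the number of founder lines are not given in the sources used here. Libraries are called WT 1 to WT 3 and MED13cTg 1 to MED13cTg 3, which the plots shorten to TG 1 to TG 3.

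A ribosome is built from a small subunit, which reads the mRNA, and a large subunit, which joins the amino acids, and apart from the stalk each protein of either subunit is needed in about equal number. Mammalian mRNAs for these proteins are short and abundant, and most begin at a C followed by a run of pyrimidines. This 5′ terminal oligopyrimidine (TOP) tract lets the mTOR pathway, through LARP1, switch their translation together when nutrients change. In heart muscle the paralog RPL3L takes the place of RPL3 in part of the ribosomes, and testis germ cells use their own paralogs RPL10L and RPL39L.

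The start sites are shown because most of these mRNAs are known to begin with the tract. Windows of 30 bases, from 10 before to 19 after the annotated start in RefSeq (GRCm38.p6), are given 5′ to 3′ on the strand of the gene, with a tract in capitals. Here a tract was a run of at least 6 C or T bases that begins with C, searched on the strand of the gene only. It could lie anywhere in the window and did not have to begin at the annotated start, as in Rpl39.
Rps6 (chr4:86857348-86857377, minus strand): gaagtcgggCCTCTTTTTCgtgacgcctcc
Rpl28 (chr7:4792955-4792984, plus strand): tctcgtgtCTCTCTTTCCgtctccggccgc
Rpl35 (chr2:39005112-39005141, minus strand): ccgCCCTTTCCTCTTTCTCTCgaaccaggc
Rpl38 (chr11:114668570-114668599, plus strand): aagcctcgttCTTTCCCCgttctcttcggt
Rpl15 (chr14:18270967-18270996, minus strand): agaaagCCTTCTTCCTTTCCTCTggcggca
Rpl39 (chrX:37085203-37085232, minus strand): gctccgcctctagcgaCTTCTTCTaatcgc
Fau (chr19:6057937-6057966, plus strand): gcccccaCTTCTTCCTCTTTCTTgactcca
Rplp0 (chr5:115559457-115559486, plus strand): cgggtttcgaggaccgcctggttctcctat
Rpl10 (chrX:74270806-74270835, plus strand): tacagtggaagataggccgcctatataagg
Rpl3l (chr17:24727816-24727845, plus strand): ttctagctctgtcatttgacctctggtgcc
Of the 77 members, 59 had a start window in the RefSeq table. A tract lay between 20 bases before and 30 after a start in 45 of these 59 (76.3%). Of all 27025 genes with a start window, 10225 had one (37.8%). A gene with several starts counted if any of them had a tract. A match of letters is a description, and a window without one says only that these letters are not near the annotated start.

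Med13 was checked first. In ventricles it stood at 13.1, 10.6 and 11.5 FPKM in WT 1 to 3 and at 263, 181 and 204 FPKM in MED13cTg 1 to 3, a rise of 4.08 ± 0.17 on the log2 scale (SE, limma adjusted p = 0.000281). FPKM is the number of fragments scaled by transcript length and by the mapped fragments of the library, so that levels of different genes are compared per length. In EWAT Med13 was at 10.9, 9.43 and 9.99 FPKM in WT mice and 7.84, 11 and 10.7 FPKM in MED13cTg mice, with overlap between the groups. The absolute depth of the libraries is unknown from FPKM. Relative to WT 1 of the same tissue, low values placed the depth between 0.923 and 1.02 in ventricles, and in EWAT at 0.662 in MED13cTg 1, 0.750 in MED13cTg 2 and 0.856 to 0.930 in the others. The ventricle libraries carried the markers of cardiomyocytes, with 10 genes summing to 85729 to 126395 FPKM. The EWAT libraries did not hold fat alone. A set of 16 secretory genes of the epididymis, the duct beside this fat pad, summed to 98506, 93785 and 118906 FPKM in WT, and to 14877, 283 and 95567 FPKM in MED13cTg mice. Markers of mature adipocytes summed to 13669, 32591 and 22328 FPKM in WT, and to 1437, 81305 and 17622 FPKM in MED13cTg mice, and 7 testis germ cell genes to 213 to 303 FPKM in WT mice and to 13638, 5.83 and 344 FPKM in MED13cTg mice. MED13cTg 1 therefore held the highest germ cell sum and MED13cTg 2 the lowest epididymis sum, and the EWAT counts are also given without each of them and with MED13cTg 3 alone.

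Ribosomal protein mRNAs spanned a wide range of levels within each tissue, although their proteins are used in about equal number. The member means ran from 2.89 to 1450 FPKM in ventricles (median 348 FPKM) and from 9.06 to 2633 FPKM in EWAT (median 500 FPKM). The 5 highest members were the same genes in both tissues, namely Rpl36a, Rpl38, Rps9, Rps21 and Rplp1. Rpl36a, of the large subunit, stood at 1947, 1049 and 1194 FPKM in WT ventricles and 1903, 1461 and 1146 FPKM in MED13cTg ventricles. Rpl38, a short protein of the large subunit known from mouse patterning defects, averaged 1325 ± 345 FPKM in WT ventricles and 2582 ± 143 FPKM in WT EWAT (SD, n = 3). Rps9 averaged 1389 ± 176 FPKM in WT ventricles and 2785 ± 214 FPKM in WT EWAT, Rps21 1331 ± 485 and 2985 ± 417 FPKM, and Rplp1 1381 ± 351 and 2771 ± 181 FPKM. The order among these 5 did not exceed their spread between WT ventricle libraries.

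The lowest members were Rpl10, Rpl17, Rpl15 and Rps15a in both tissues, joined by Rpl21 in ventricles and Rpl28 in EWAT. Rpl10, among the last proteins to join the large subunit, was the lowest by far. It stood at 3.77, 3.16 and 2.28 FPKM in WT ventricles and at 2.47, 3.29 and 2.35 FPKM in MED13cTg ventricles. In WT ventricles the next lowest, Rpl17, averaged 13.7 ± 3.89 FPKM, Rpl21 24.9 ± 2.21, Rpl15 25.8 ± 12.4 and Rps15a 25.9 ± 3.96 FPKM (SD, n = 3), and these last 3 did not differ beyond their spread. In WT EWAT Rpl10 averaged 12.6 ± 0.591 FPKM, Rpl17 33.6 ± 2.88, Rpl15 38.5 ± 13.8, Rps15a 41.0 ± 1.56 and Rpl28 55.5 ± 4.26 FPKM.

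**Figure D1:**
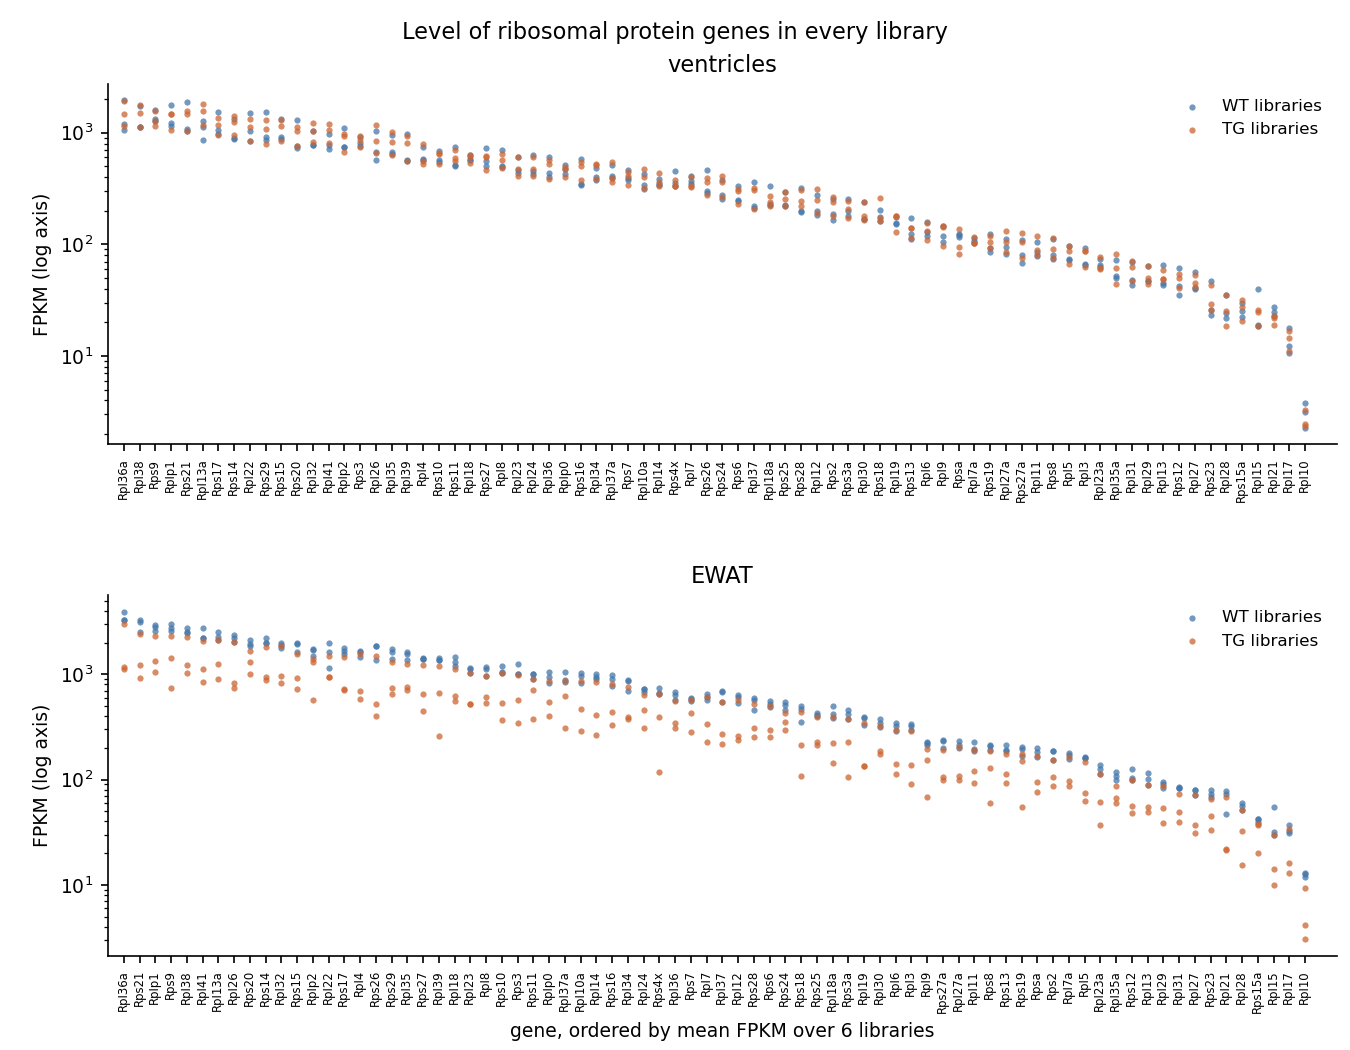
FPKM of 76 ribosomal protein genes (log axis) in every library, ordered by mean level within ventricles (top) and EWAT (bottom), with WT libraries in blue and MED13cTg libraries (TG) in orange. Mean levels ran from 2.89 to 1450 FPKM in ventricles, where the genotypes were mixed, and in EWAT most orange points lie below the blue ones.

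Members with other known roles lay between these ends. The stalk proteins recruit the translation factors to the ribosome, and among their genes Rplp1 at 1381 FPKM and Rplp2 at 862 FPKM stood above Rplp0, at 469 ± 45.2 FPKM, in WT ventricles. The order was the same in WT EWAT, with 2771, 1642 and 940 FPKM for Rplp1, Rplp2 and Rplp0. Rpl41, which encodes the shortest member at 25 residues, averaged 822 ± 137 FPKM in WT ventricles and 2403 ± 327 FPKM in WT EWAT. Rps6, the substrate of the S6 kinases, averaged 275 ± 47.3 and 522 ± 36.8 FPKM in the same groups. Rpl5 and Rpl11, which bind MDM2 when ribosome assembly is disturbed, averaged 81.2 ± 13.5 and 89.4 ± 13.1 FPKM in WT ventricles and 163 ± 1.85 and 203 ± 23.3 FPKM in WT EWAT. Rps19, the gene most often mutated in Diamond-Blackfan anaemia, averaged 100 ± 21 FPKM in WT ventricles and 188 ± 18.7 FPKM in WT EWAT, and Rps27a, which is made as a fusion with ubiquitin, 85.9 ± 20.7 and 223 ± 19.5 FPKM. Rpsa, also known as the laminin receptor, averaged 121 ± 4.74 and 183 ± 17.7 FPKM.

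Low members were often genes with many near-identical copies. Copies were counted as GENCODE pseudogene transcripts that match at least 90% of the coding sequence at 95% identity or more, and their number ran from 0 to 55 (median 5). The 4 members with none, Rplp2 and Rpl8 among them, had means of 565 to 925 FPKM in ventricles and 862 to 1368 FPKM in EWAT. The 14 members with 11 to 55 copies had a median of 63.8 FPKM in ventricles (13.9 to 216 FPKM) and of 93.7 FPKM in EWAT (27.3 to 287 FPKM). Rpl21, the member with 55 copies, averaged 24.9 FPKM in WT ventricles, and Rpl10, with 8, was lower still. Across the 77 members, which share libraries and aligner, copies and mean FPKM had a Spearman correlation of -0.72 in ventricles and -0.75 in EWAT, and protein length and mean FPKM one of -0.29 and -0.31. Reads that fit a gene and its copies can be split or lost in alignment, so that the level of a member with many copies is uncertain, and what part this played was not tested. Copies and the log2 difference between genotypes had a correlation of -0.03 in ventricles and 0.25 in EWAT.

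**Figure D2:**
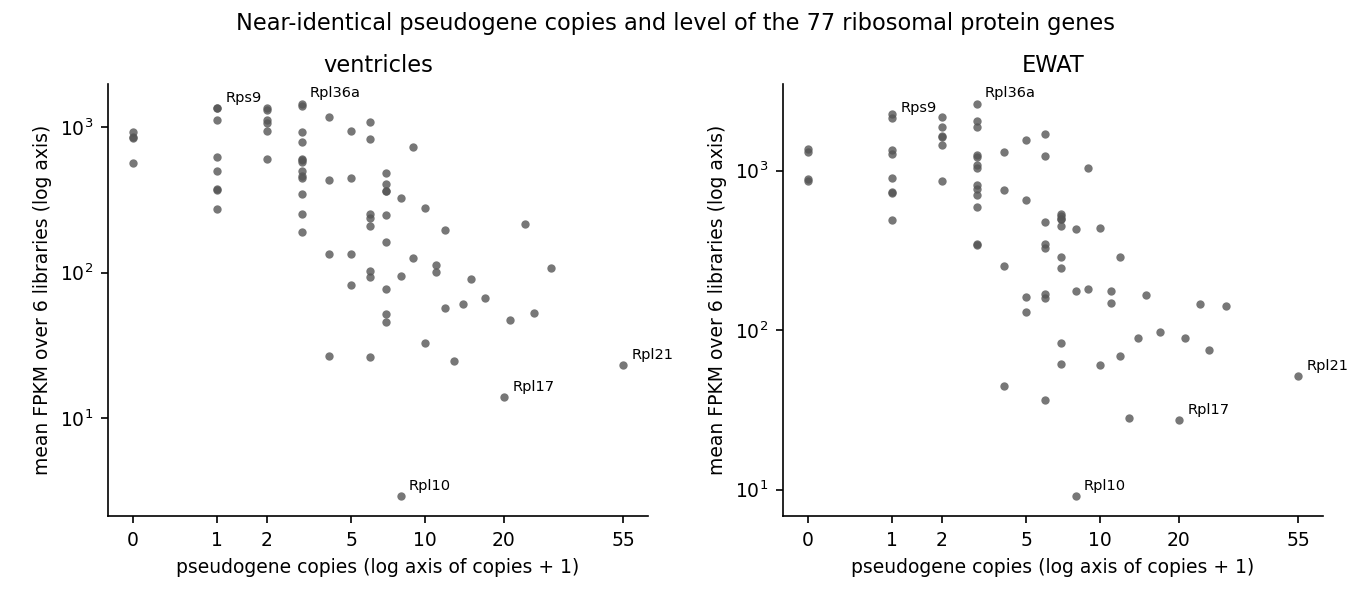
Number of near-identical pseudogene copies (axis of copies + 1, log scale) against mean FPKM over 6 libraries (log axis) for the 77 members in ventricles and EWAT, 1 point per gene. Members with 11 to 55 copies had medians of 63.8 and 93.7 FPKM, and Rpl10, with 8 copies, lay below all others.

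The order of the members hardly differed between tissues, with a Spearman correlation of 0.970 between WT ventricles and WT EWAT across the 77 genes. Members made up 4.37%, 3.51% and 3.46% of the summed FPKM of WT ventricle libraries and 7.77%, 7.14% and 7.40% of WT EWAT libraries. The tables were normalized separately, so levels are set side by side as shares with no test. As a share of the summed FPKM, the WT EWAT mean was above the WT ventricle mean for 76 of 77 members, with a median ratio of 1.94. For 73 members no library overlapped. The share of all genes without overlap between the tissues was not counted, so this count is not read as particular to the members. Rps26, Rpl3 and Rpl10 stood at the upper end with ratios of 4.69, 4.14 and 3.98. Rps2, singled out after its values were seen, was at the lower end with 0.848. Since WT EWAT libraries held epididymis mRNA, these shares belong to the mixed tissue.

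In ventricles the members separated the libraries, and not by genotype. Summed over the 77 genes the level was 43287, 29221 and 30646 FPKM in WT 1 to 3 and 37855, 41283 and 29064 FPKM in MED13cTg 1 to 3. WT 1, MED13cTg 1 and MED13cTg 2 were high and WT 2, WT 3 and MED13cTg 3 were low. For 65 of 77 members (84.4%) each of the 3 high libraries lay above each of the 3 low ones, against 23.1% of the 12589 genes tested. The median member differed from the WT mean by 0.33, -0.19 and -0.13 on the log2(FPKM + 1) scale in WT 1 to 3 and by 0.10, 0.26 and -0.22 in MED13cTg 1 to 3. Large and small subunit genes moved alike, with medians of 0.30 and 0.35 in WT 1 and of -0.22 and -0.22 in MED13cTg 3. The sum of macrophage markers (515, 368 and 345 FPKM in WT, then 571, 545 and 400 FPKM) split the libraries in the same way, while those of cardiomyocytes, endothelium and epididymis did not. The sum of adipocyte markers did so too (4563, 3894 and 3926 FPKM, then 3998, 4984 and 3688 FPKM), but Fabp4, named after its values were seen, made up most of it with 3752, 3017 and 3073 FPKM, then 3338, 4261 and 2770 FPKM, and not every adipocyte marker had this order. The part of these cells in the member levels was not tested. This grouping of the libraries was known from earlier results of these data and is a description.

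**Figure D3:**
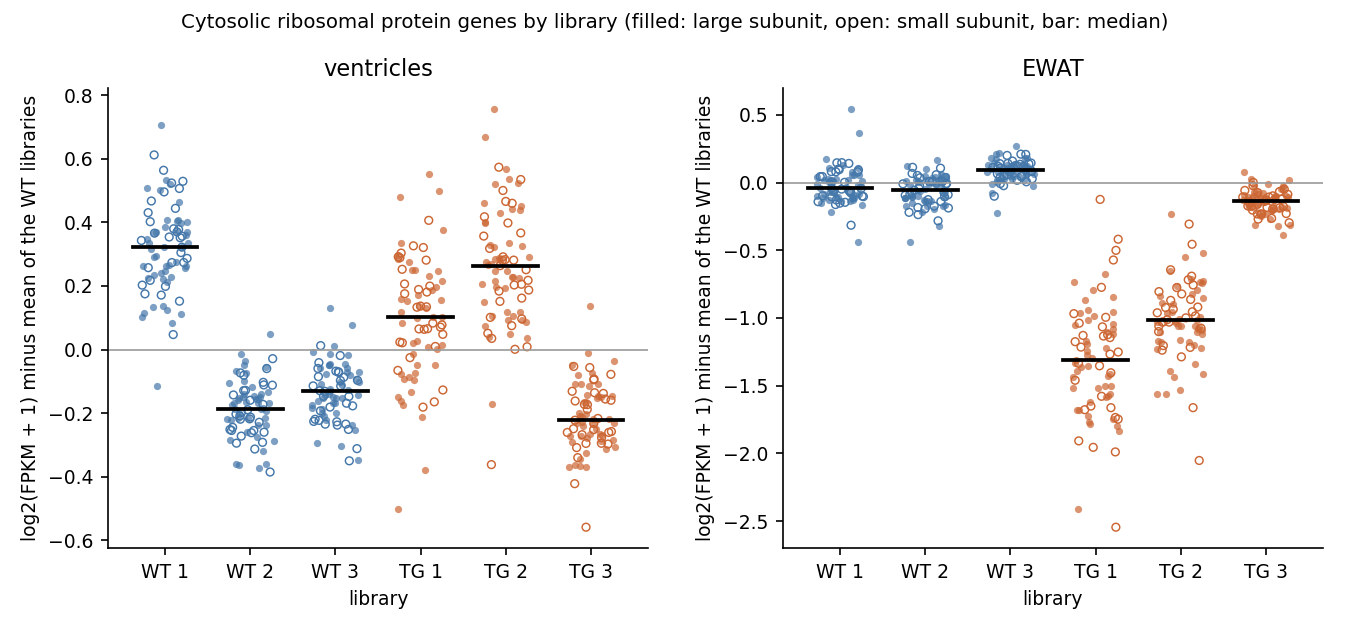
Deviation of each member from the mean of the 3 WT libraries, in log2(FPKM + 1), by library in ventricles (left) and EWAT (right), with filled points for the large subunit, open points for the small subunit and a bar at the median. In ventricles WT 1, TG 1 and TG 2 lie high, with medians of 0.33, 0.10 and 0.26, and in EWAT TG 1 and TG 2 lie low, with medians of -1.31 and -1.01.

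Against this spread no member passed the test between genotypes in ventricles. None of 77 passed limma's adjusted threshold of 0.05, where 0.0556% of the genes tested did, and none had an unadjusted p under 0.05, where 4.73% did. No member had every MED13cTg library above (background 3.46%) or below (5.85%) every WT library. The mean was higher in MED13cTg for 48 members and lower for 29, with a median log2 difference of 0.04, against -0.014 over all genes tested, and a range from -0.24 to 0.48. The summed level was 1.05 times that of WT, 0.914 times within the 3 high libraries and 0.971 times within the 3 low ones. With the library cluster as a covariate, the median was -0.11 and 66 members were lower, and without WT 1 it was 0.21 and 4 were lower. Without MED13cTg 3 only 7 were lower, and without WT 2, WT 3 or MED13cTg 2 there were 50, 51 and 56, so the sign of the difference turned with the libraries used. The median SE of a member was 0.21 on the log2 scale, against 0.15 over all genes tested, so a difference of that size was not detectable here.

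The largest differences in ventricles did not pass the adjusted threshold, although all but that of Rpl10 exceeded the SE of the gene. Rpl13a (chr7:52380932-52384115 in mm9), a large subunit protein that also takes part in the interferon-gamma response, stood at 1266, 858 and 1128 FPKM in WT mice and 1571, 1808 and 1178 FPKM in MED13cTg mice. Its MED13cTg mean was higher by 0.48 ± 0.23 (log2, SE, limma adjusted p = 0.966), and its entry also holds Mir5121 and Snord33, so its value is uncertain. Rpl41 stood at 977, 717 and 771 FPKM in WT mice and 1056, 1207 and 808 FPKM in MED13cTg mice, a difference of 0.31 ± 0.21. Rpl32 stood at 1027, 773 and 768 FPKM in WT mice and 1034, 1218 and 827 FPKM in MED13cTg mice, a difference of 0.26 ± 0.21. In both genes MED13cTg 1 and 2 were highest and MED13cTg 3 lay inside the WT range. Rpsa was at 125, 116 and 122 FPKM in WT mice and 138, 93.9 and 81.8 FPKM in MED13cTg mice, a difference of -0.24 ± 0.20. Rpl21, in an entry shared with Rasl11a, was at 22.9, 24.6 and 27.3 FPKM in WT mice and 18.9, 22 and 22.9 FPKM in MED13cTg mice, and differed by -0.22 ± 0.12. Rpl10 differed by -0.13 ± 0.18. All 5 had a limma adjusted p of 0.966, and their groups overlapped.

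In EWAT the members were lower in MED13cTg without exception, and 2 of the 3 MED13cTg libraries carried the difference. The summed level was 69168, 65667 and 73290 FPKM in WT mice and 27652, 33317 and 61559 FPKM in MED13cTg mice, a ratio of means of 0.589. All 77 members had a lower mean in MED13cTg, with a median log2 difference of -0.82 and a range from -1.30 to -0.42, where the median over all genes tested was 0.012. Every member was lower in MED13cTg 1 and in MED13cTg 2 than in any WT library. The share of all genes tested with this order in MED13cTg 1 and 2 was not counted, so how far it is particular to the members is unknown. MED13cTg 3 lay inside the WT range for 37 members and below it for 40. The median member differed from the WT mean by -1.31 in MED13cTg 1, -1.01 in MED13cTg 2 and -0.13 in MED13cTg 3. MED13cTg 1 was the lowest of the 6 libraries for 59 members and MED13cTg 2 for 18.

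No member passed the adjusted threshold in EWAT. Limma's adjusted p was 0.738 for each of the 77, and the genes that passed among 14967 (0.0134%) were Mir196b and Mir3060, with 0 passing when the replicate number was a block. At an unadjusted p under 0.05 there were 4 members (5.19%), all lower, against 1.25% of the genes tested. In 40 members (51.9%) each MED13cTg library lay below all WT libraries, against 7.8% of the genes tested, and in none were they all above, against 4.88%. With MED13cTg 3 alone set against WT, the median difference was -0.13, the ratio of sums 0.887, 73 members were lower and 0 passed. Without MED13cTg 1 the median was -0.58, without MED13cTg 2 it was -0.72 and without MED13cTg 3 it was -1.16, and all 77 members were lower in each case. Library totals differed too, and when each was scaled to the same summed FPKM the median was -0.51 and the ratio of sums 0.710.

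The 3 members with the lowest log2 differences in EWAT were Rps26, Rpl39 and Rpl10. Rps26 (chr10:128061584-128063562 in mm9), which lies at the mRNA exit channel of the small subunit, stood at 1848, 1373 and 1838 FPKM in WT mice and 527, 402 and 1482 FPKM in MED13cTg mice, a difference of -1.30 ± 0.58. Rpl39 (chrX:34622514-34625179), a short protein that lines the exit tunnel of the large subunit, stood at 1366, 1430 and 1360 FPKM in WT mice and 259, 663 and 1198 FPKM in MED13cTg mice, a difference of -1.23 ± 0.61. Rpl10 (chrX:71516154-71518474) stood at 11.9, 12.8 and 13 FPKM in WT mice and 3.05, 4.17 and 9.38 FPKM in MED13cTg mice, a difference of -1.17 ± 0.39. For Rpl39 and Rpl10 all MED13cTg libraries were below WT, and for Rps26 MED13cTg 3 was above WT 2. In all 3, MED13cTg 3 stood nearest to WT. The 4 members with an unadjusted p under 0.05 were Rpl10, Rps27a, Rpl15 and Rpl35a, the last named only after its values were seen. Rps27a was at 200, 233 and 236 FPKM in WT mice and 100, 105 and 189 FPKM in MED13cTg mice, Rpl15 at 54.4, 29.5 and 31.6 against 9.95, 14 and 29.6 FPKM, and Rpl35a at 109, 98.4 and 118 against 67.3, 59.6 and 86.7 FPKM. The smallest difference was that of Rps15a, at 39.2, 42 and 41.8 FPKM in WT mice and 37.5, 20 and 37.0 FPKM in MED13cTg mice.

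Markers of other cells also differed between the EWAT libraries, and only the epididymis sum was low in the same MED13cTg libraries as the members. All 16 epididymis genes had a lower mean in MED13cTg, with a median log2 difference of -3.64 and their sum in MED13cTg 3 was inside the WT range while MED13cTg 1 and 2 were below it. The lowest epididymis sum was that of MED13cTg 2, and the lowest member sum that of MED13cTg 1. None of the 16 was at 0 in all libraries. All 7 germ cell genes had a higher mean in MED13cTg, and their sum was highest in MED13cTg 1. Adipocyte markers were lowest in MED13cTg 1 and highest in MED13cTg 2, whereas the members were low in both, and the sums of macrophage (111 to 589 FPKM), fibroblast (244 to 2470 FPKM) and endothelial markers (21.7 to 460 FPKM) had those same extremes. In bulk tissue fewer cells of a type and less RNA per cell cannot be told apart, and the part of the cell mixture in the member levels was not tested. The members did not all deviate alike, since their deviations ran from -2.55 to -0.13 in MED13cTg 1, from -2.05 to -0.23 in MED13cTg 2 and from -0.39 to 0.08 in MED13cTg 3.

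The encoded proteins are short, with 25 to 419 residues, and 55 of 77 have fewer than 200. Other genes were therefore read by protein length, known for 92.9% of the genes tested in ventricles and 91.3% in EWAT. In ventricles the 277 other genes below 100 residues showed the same crossing of the genotypes, with medians of 0.28, -0.15 and -0.08 in WT 1 to 3 and 0.03, 0.23 and -0.16 in MED13cTg 1 to 3. For the 9 members below 100 residues the medians were 0.47, -0.22, -0.22, 0.20, 0.33 and -0.27 in the same order. Other genes of 800 residues or more stayed between -0.05 and 0.02 in all 6 libraries. The members of 200 up to 400 residues kept the split. Their medians were 0.26, -0.15 and -0.08 in WT 1 to 3 and 0.05, 0.19 and -0.22 in MED13cTg 1 to 3. Other genes of that length had medians of 0.07, -0.05 and -0.01 in WT and -0.02, 0.05 and -0.08 in MED13cTg. Among those other genes MED13cTg 1 was not above WT 3.

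In EWAT other genes below 100 residues were lower as well, by a median of -0.69 in MED13cTg 1, -0.49 in MED13cTg 2 and -0.16 in MED13cTg 3. Other genes of 200 up to 400 residues had medians of -0.23, -0.09 and -0.06, and those of 800 or more of 0.13, 0.08 and 0.06. The members did not follow this slope with length in MED13cTg 1. Their medians in MED13cTg 1 were -1.34 for the 9 below 100 residues and -1.20 for 46 at 100 up to 200. They were -1.44 for 20 at 200 up to 400 and -1.61 for 2 longer members. In the same order the medians were -1.09, -1.01, -0.92 and -1.19 in MED13cTg 2, and -0.20, -0.13, -0.13 and -0.07 in MED13cTg 3. Many other genes are less abundant than the members, and the 433 other genes below 200 residues with at least 100 FPKM had medians of -1.02, -0.48 and -0.18 in MED13cTg 1 to 3. The part of transcript length in the member levels was not tested.

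**Figure D4:**
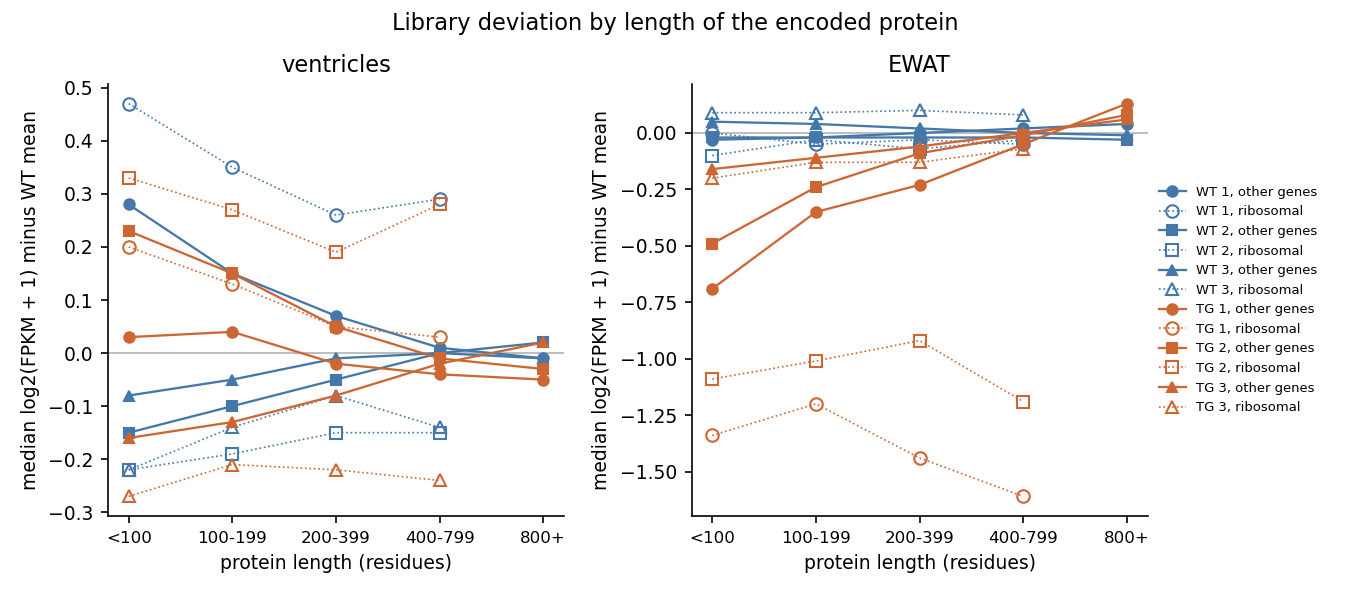
Median deviation from the WT mean in log2(FPKM + 1) by length of the encoded protein, for each library, with solid lines and filled symbols for other genes and dotted lines with open symbols for ribosomal protein genes, in ventricles (left) and EWAT (right). In ventricles short proteins spread the libraries across the genotypes, and in EWAT the members of TG 1 and TG 2 lie below other genes at each length, with only 2 members in the bin of 400 up to 800 residues.

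A list of short and a list of long mRNAs were read by name. Among 35 other short mRNAs, such as those of small respiratory chain subunits, the medians in ventricles were 0.36, -0.21 and -0.12 in WT and 0.02, 0.30 and -0.31 in MED13cTg. In EWAT they were -0.69, -0.40 and -0.22 in MED13cTg, and 28 of 35 genes had a lower mean. Every MED13cTg library lay below WT in 15 of the 35, against 7.8% of the genes tested. The 23 long mRNAs found of 25 listed had medians of -0.52, 0.12 and 0.03 in MED13cTg EWAT, so that in MED13cTg 1 they stood lower than the other genes of 800 residues or more (0.13). In ventricles the medians of the long mRNAs were 0.14, -0.01 and -0.16 in WT and -0.19, 0.07 and -0.09 in MED13cTg, a wider spread than that of the longest bin. No gene of either list passed limma's adjusted threshold in either tissue, and none had an unadjusted p under 0.05.

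The ribosomal protein of Fau is made as a fusion with a ubiquitin-like protein, and its symbol lies outside the rule. Fau stood at 867, 585 and 569 FPKM in WT ventricles and 767, 833 and 583 FPKM in MED13cTg ventricles, a difference of 0.12 ± 0.23. In EWAT Fau was at 2010, 1767 and 2169 FPKM in WT mice and 781, 957 and 1617 FPKM in MED13cTg mice, a difference of -0.89 ± 0.43. It thus had its lowest EWAT values in MED13cTg 1 and 2, as the members had. It did not pass limma's adjusted threshold, with an adjusted p of 0.971 in ventricles and 0.738 in EWAT.

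Paralogs differed from their members in tissue and in library. Rpl3l (chr17:24859011-24873094 in mm9), the striated muscle paralog with 76.2% identical residues to Rpl3 in the GENCODE translations, was at 331, 278 and 294 FPKM in WT ventricles and 249, 272 and 257 FPKM in MED13cTg ventricles. Rpl3 itself was at 92.4, 66.8 and 64.8 FPKM in WT mice and 86.7, 87.6 and 63.2 FPKM in MED13cTg mice. Rpl3l thus exceeded Rpl3 in all 6 ventricle libraries, 4.03 times in the WT means and 3.27 times in the MED13cTg means. All MED13cTg values of Rpl3l were below WT, by -0.21 ± 0.13 (limma adjusted p = 0.966), and Rpl3l did not split the libraries as the members did, since WT 2 and WT 3 were above MED13cTg 1 and 2. Rpl3 differed by 0.09 ± 0.20 (adjusted p = 0.971).

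In EWAT the pair was the other way round. Rpl3 stood at 320, 293 and 339 FPKM in WT mice and 91.3, 137 and 291 FPKM in MED13cTg mice, a difference of -1.04 ± 0.46 (limma adjusted p = 0.738). Rpl3l stood at 52.1, 36.9 and 29.4 FPKM in WT mice and 8.88, 0.416 and 25.3 FPKM in MED13cTg mice, a difference of -2.46 ± 1.07 (adjusted p = 0.738). Its order over the MED13cTg libraries, lowest in MED13cTg 2 and highest in MED13cTg 3, was that of the epididymis sum. Over the WT libraries the order was not the same, since Rpl3l was lowest in WT 3, where the epididymis sum was highest (118906 FPKM).

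The germ cell paralogs stood out in MED13cTg 1 alone. Rpl39l, 94.1% identical to Rpl39 in protein, was at 7.45, 2.48 and 1.12 FPKM in WT EWAT and at 459, 0.456 and 4.54 FPKM in MED13cTg EWAT, so that in MED13cTg 1 it was 1.77 times Rpl39. Rpl10l, 98.6% identical to Rpl10, was at 2.66, 1.38 and 1.08 FPKM in WT EWAT and at 196, 0.267 and 2.94 FPKM in MED13cTg EWAT, 64.2 times Rpl10 in MED13cTg 1. That library also had the germ cell marker sum of 13638 FPKM. In ventricles Rpl39l ran from 0.840 to 2.29 FPKM and Rpl10l from 0.103 to 0.316 FPKM. The entry Rps4y2 was at 109, 71.8 and 87.0 FPKM in WT EWAT and 148, 38.4 and 62.4 FPKM in MED13cTg EWAT, above its relative Rps4x (117 FPKM) only in MED13cTg 1.

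Other paralogs varied less between EWAT libraries than their members, apart from Rpl36al. Rps27l, a p53 target with 96.4% identity to Rps27, was at 244, 280 and 243 FPKM in WT EWAT and 218, 220 and 221 FPKM in MED13cTg EWAT, while Rps27 was at 1409, 1401 and 1413 FPKM and then at 643, 444 and 1222 FPKM. Rpl22l1, 70.3% identical to Rpl22, was at 115, 151 and 131 FPKM in WT mice and 109, 126 and 121 FPKM in MED13cTg mice. Rpl7l1, 40.7% identical to Rpl7, was at 21, 22 and 22.7 FPKM in WT mice and 19.5, 22.4 and 20.6 FPKM in MED13cTg mice, against 566, 613 and 643 FPKM and then 227, 338 and 614 FPKM for Rpl7. Rpl36al, whose protein is identical to that of Rpl36a, was at 823, 893 and 973 FPKM in WT mice and 443, 330 and 783 FPKM in MED13cTg mice, low in the same libraries as the members. Differences between a paralog and its member were not tested.

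**Figure D5:**
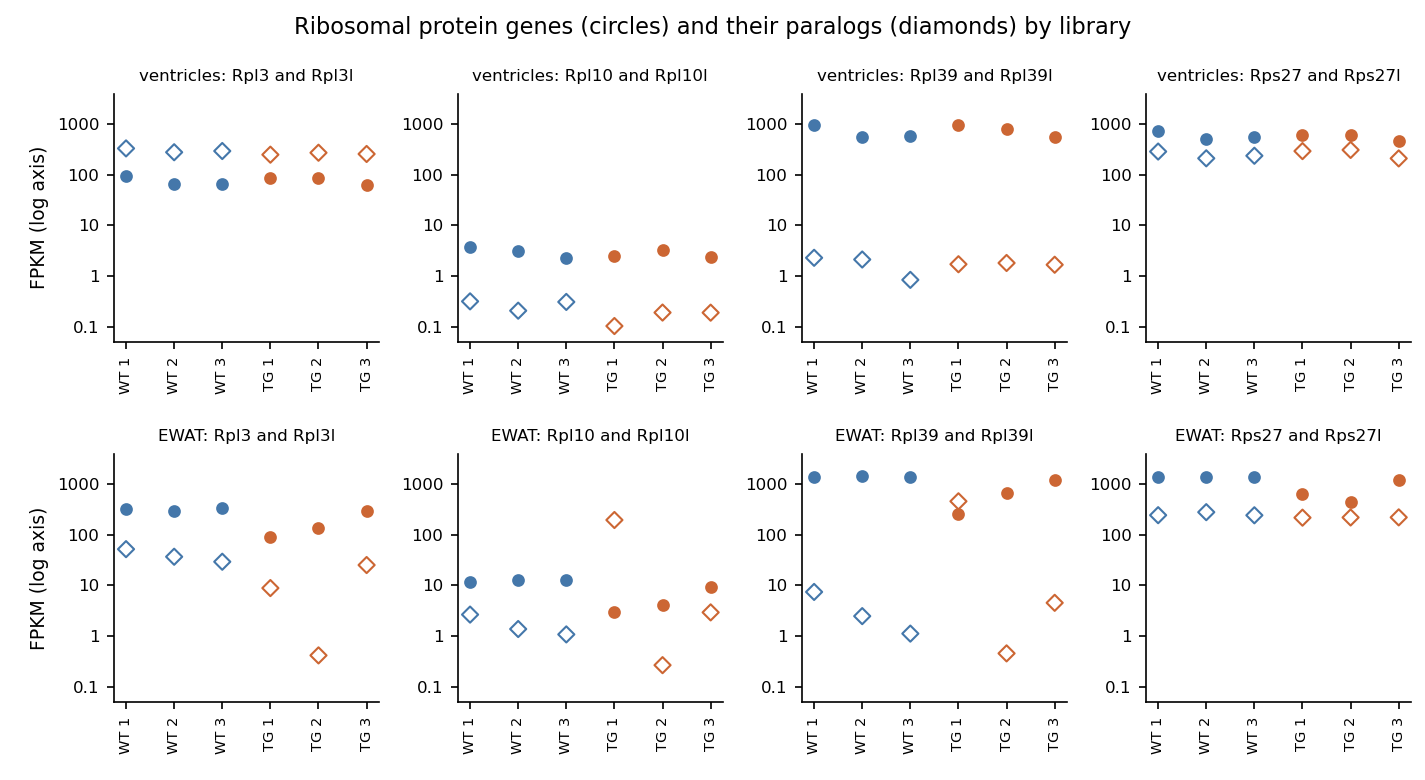
FPKM (log axis) of 4 ribosomal protein genes (circles) and their paralogs (diamonds) in each ventricle library (top) and EWAT library (bottom), with WT in blue and MED13cTg (TG) in orange. Rpl3l lies above Rpl3 in ventricles and below it in EWAT, and Rpl10l and Rpl39l reach 196 and 459 FPKM in TG 1 of EWAT.

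The wider translation machinery was read from lists. Of 20 elongation factors and other TOP mRNAs listed, 19 were found and none passed limma's adjusted threshold, with 1 lower at an unadjusted p under 0.05 in ventricles and 2 lower in EWAT. In EWAT 15 of the 19 had a lower mean, with a median difference of -0.26, and library medians of -0.53, -0.56 and -0.04 in MED13cTg 1 to 3. Gnb2l1, which encodes the small subunit scaffold RACK1 and was named after its values were seen, was at 871, 830 and 920 FPKM in WT EWAT and 282, 385 and 824 FPKM in MED13cTg EWAT. Factors that build ribosomes without being part of them did not share the shift. Of the 30 biogenesis genes, 15 had a higher and 15 a lower mean in EWAT, with a median of -0.02 and library medians of 0.16, -0.12 and -0.02, and 0 passed the adjusted or the unadjusted threshold in either tissue. Their ventricle medians lay between -0.07 and 0.10 in all 6 libraries. Of 11 translation control genes, such as Mtor and Larp1, none passed the adjusted threshold, 1 was lower at an unadjusted p under 0.05 in ventricles and 0 were so in EWAT, and their median differences were -0.10 and -0.09.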

How the data were processed

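RNA was sequenced by the authors from ventricles and EWAT of 3 WT and 3 MED13cTg male mice per tissue, 1 library per mouse (12 in all). Per the labels, reads were aligned to mm9 with TopHat, and per the methods levels were estimated with Cufflinks at default settings, with versions not given in the sources used here. The authors deposited FPKM values in 1 table per tissue, with 23042 entries, of which 341 join several symbols (4 hold a member) and 31 have no symbol. The authors' mean and fold columns were not used, nor was 1 unlabelled value column. Labels and paper differ on age and on RNA per library. Absolute depth is unknown; relative depth was taken from the mode of the ratios to WT 1 among entries below 0.15 FPKM. No libraries of a tissue were identical.

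Entries whose mean over 6 libraries reached 1 FPKM were compared within each tissue by limma 3.58.1 (R 4.3.3) after transformation to log2(FPKM + 1) (lmFit, eBayes with trend, Benjamini-Hochberg over all genes tested, threshold 0.05), which understates the differences of low genes. The fit was tested on simulated data. Protein lengths and copies came from GENCODE M21 and start windows from RefSeq on GRCm38, never mixed with mm9 coordinates. Python 3.11.15, numpy 2.4.6, pandas 2.3.3, scipy 1.17.1 and matplotlib 3.10.9 were used. Deviations of same-numbered EWAT libraries from their group means had correlations of 0.347, 0.304 and 0.144, and in ventricles 0.0855, -0.192 and 0.140. Libraries with different numbers had -0.417 to 0.168 in EWAT and -0.271 to 0.188 in ventricles, so number 3 in EWAT lay inside that range. The labels give no shared litter or batch, so any pairing in EWAT would rest on these values alone.

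The members, lists and markers were chosen with earlier results of these data known. Genes named with a difference are members past the threshold, up to 3 with the highest and 3 with the lowest log2 difference, Rpl3, Rpl3l, Fau and Med13, and some genes of the rule are not reported here. Others are named by level by a fixed list, or as singled out later. Alternatives were a pseudocount of 0.1, no filter, median-of-ratios scaling, a stricter filter (5 FPKM), scaling to an equal summed FPKM, joined entries left out, the replicate block, each library left out, the ventricle library cluster and MED13cTg 3 alone. The count of members with a lower MED13cTg mean was added after seeing the data.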

Additional observations from a re-analysis of the deposited data

Results flagged for a closer look

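Rpl13a was the only member whose MED13cTg libraries all lay above the WT mean in ventricles and all below it in EWAT. Its log2 difference was 0.48 in ventricles and -0.79 in EWAT, and the difference between the tissues was not tested. The entry also holds a microRNA and a small nucleolar RNA gene, and in ventricles MED13cTg 3 (1178 FPKM) was within the WT range.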

How the results depend on the processing

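No member passed the threshold under any of the 14 alternatives of either tissue. In ventricles 7 genes passed in all, 3 with a filter at 5 FPKM, 4 with the replicate block and 4 to 9 without 1 library. The member median stayed between -0.11 and 0.21, and 25 to 66 members were lower except without WT 1 (4) or MED13cTg 3 (7). In EWAT 2 genes passed, 0 without a filter, 0 with the replicate block, 19 with MED13cTg 3 alone and 1 to 5 without 1 library. The member median of -0.82 became -0.13 with MED13cTg 3 alone, -0.51 at an equal summed FPKM and -1.16 to -0.58 without 1 library. The ratio of sums of 0.589 became 0.887, 0.710 and 0.439 to 0.684 under the same alternatives. The replicate block changed no other call. Differences near 0 changed sign. In EWAT Med13 (-0.05) was at 0.07 with MED13cTg 3 alone, 0.01 with median-of-ratios scaling, 0.24 at an equal summed FPKM and up to 0.10 without 1 library. With the library cluster Fau was at -0.05 and Rpl3 at -0.07 in ventricles, and Rpl3 ranged from -0.00 without WT 3 to 0.25 without WT 1. Depth limits low entries such as Rpl10l most, and 3 libraries a group limit every test.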

Other observations

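Eef1b2, a subunit of the elongation factor that reloads eEF1A and a TOP mRNA outside the ribosome, was singled out after its values were seen. It was at 173, 128 and 143 FPKM in WT ventricles and 91.2, 86.2 and 62.9 FPKM in MED13cTg ventricles, a log2 difference of -0.89 ± 0.19 (limma adjusted p = 0.758). In EWAT it was at 325, 330 and 359 FPKM in WT mice and 62.5, 85.7 and 162 FPKM in MED13cTg mice, a difference of -1.81 ± 0.39 (limma adjusted p = 0.738). The genotypes did not overlap in either tissue, MED13cTg 3 in EWAT included, an order that none of the 77 members had in ventricles. Every MED13cTg library lay below WT for 5.85% of the genes tested in ventricles and 7.8% in EWAT. Of the 19 TOP mRNAs found, Eef1b2 included, 3 had this order in ventricles and 4 in EWAT.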
